A study of Mus musculus with 8 samples.

Results

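The genes of Hox paralog groups 1 to 3 are the anterior members of the mouse Hox clusters, and 7 of them were followed here in the neural tube and paraxial tissue of embryos with and without conditional loss of Geminin. They were Hoxb1 and Hoxd1 of group 1, Hoxa2 and Hoxb2 of group 2, and Hoxa3, Hoxb3 and Hoxd3 of group 3. The members were every probe outside the array's control spots that carried 1 of these 7 gene names, which gave 8 of 55681 probes, since Hoxb3 had 2. All 7 genes passed the filter on dim probes and were among the 28828 genes tested. Any remaining gene of these groups was not analysed here. The samples came from C57BL/6 mouse embryos at E10.5: 2 wild-type embryos, and 2 mutant embryos whose genotype is labelled fl/fl; cre/o, with the cre driver not named. From each embryo the spinal neural tube, which forms the spinal cord, and the neighbouring paraxial tissue, which forms vertebrae, muscle and dermis, were cut out separately with a laser. RNA of each piece was read on a 1-colour Agilent array of its own, so 4 groups had 2 arrays each, and both tissues of an embryo were matched.

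Hox genes encode homeodomain transcription factors that give cells their position along the head-to-tail axis. They sit in clusters in which genes at one end are switched on earlier and have more anterior limits of expression, and groups 1 to 3 lie at that end. Their best known roles are in the segments of the hindbrain, in neural crest and in neck vertebrae. Their transcripts also extend into the spinal cord and the somites, and retinoic acid, Cdx factors and cofactors of the Pbx and Meis families act on them or with them.

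On the 8 arrays 71.8% to 78.1% of spots were well above background, with the percentile used for scaling (the 75th of processed signals) at 3164 to 6361. Markers of the labelled tissues passed unevenly. As higher in neural tube, 6 of 7 ventral neural tube markers passed in each genotype (0.787% of all genes did in wild type and 2.69% in mutants), whereas neural progenitor markers gave 0 of 7 in wild type and 7 of 7 in mutants, differentiated neuron markers 0 and 1 of 10, and dorsal markers 1 and 2 of 12, with 2 dorsal markers lower in mutants. As lower, 5 of 6 myotome and 4 of 8 sclerotome and mesenchyme markers passed in each genotype (1.70% and 3.18% of all genes). Gmnn, the gene that encodes Geminin, had scaled log2 signals of 12.35 and 12.24 in wild-type neural tube, 12.11 and 11.80 in mutant neural tube, 12.20 and 11.88 in wild-type paraxial tissue, and 11.42 and 11.39 in mutant paraxial tissue (embryos 1 and 2 of each genotype in that order, as in all lists here). In each tissue both mutants had less of it than both wild types, but neither difference passed the test (-0.35 ± 0.25, SE, and -0.63 ± 0.25; limma adjusted p = 0.922 and 0.995). In the other direction, 16.5% of all genes in neural tube and 22.6% in paraxial tissue stood apart between mutants and wild types. Whether the Gmnn probe lies in the deleted part is not given in the labels, so its values do not check the genotype.

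The 250 bases upstream of the start of Hoxb1 and Hoxa2 are given from RefSeq on GRCm38.p6 as examples from the members higher in neural tube. They lie at chr11:96365508-96365757 on the plus strand and at chr6:52164832-52165081 on the minus strand. Capitals mark matches on either strand to TGATNNAT, a form of the bipartite motif of Pbx and Hox proteins, and to TGACAG, the core bound by Meis proteins.
Hoxb1, upstream window: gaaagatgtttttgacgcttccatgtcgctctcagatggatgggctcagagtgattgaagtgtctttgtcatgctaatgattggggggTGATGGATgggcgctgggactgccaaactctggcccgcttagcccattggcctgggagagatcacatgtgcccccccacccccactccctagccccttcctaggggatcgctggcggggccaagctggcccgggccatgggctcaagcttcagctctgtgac
Hoxa2, upstream window: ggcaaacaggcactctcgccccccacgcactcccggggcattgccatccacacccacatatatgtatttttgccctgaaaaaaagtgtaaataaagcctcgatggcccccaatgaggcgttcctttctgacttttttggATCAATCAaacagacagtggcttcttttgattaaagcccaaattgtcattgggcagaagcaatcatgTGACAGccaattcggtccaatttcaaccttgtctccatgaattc
The Hoxb1 window held 1 TGATNNAT match and no TGACAG, and the Hoxa2 window held 1 of each, at separate places. Of the 5 members with a window in the table (all except Hoxb2 and Hoxb3), 2 held TGATNNAT, 2 held TGACAG and 1 held AGGTCA, the core of a retinoic acid receptor site. The 2 with TGATNNAT are the 2 shown. The windows of Hoxa3 and Hoxd3, also higher in neural tube, held no TGATNNAT. Over 32851 windows of the same length these motifs were present in 7.71%, 15.9% and 14% respectively. These matches describe letters in a short window and not sites in use.

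The first comparison asked whether the anterior Hox genes differed between neural tube and paraxial tissue. Within every one of the 4 embryos, Hoxb1, Hoxa2, Hoxb2, Hoxa3, Hoxb3 and Hoxd3 had more signal in neural tube than in paraxial tissue, and Hoxd1 had less. Of all genes tested, 18.0% were higher and 17.2% lower in neural tube in all 4 embryos. The groups of 2 arrays did not overlap for 5 members in wild type, all higher in neural tube (18.3% of all genes), and for 6 in mutants, 5 higher (16.5%) and Hoxd1 lower (19.7%). In wild type, 3 members passed the test as higher in neural tube (Hoxb1, Hoxb2 and Hoxd3; 0.787% of all genes passed in that direction), and in mutants 2 did (Hoxa2 and Hoxd3; 2.69% of all genes). Averaged over both genotypes, 5 members were higher (5.97% of all genes) and Hoxd1 was lower (6.03% of all genes). Hoxb1 passed the filter on dim probes only through the neural tube groups, where it was high, which limits its calls. With a filter that asked for signal well above background on all 8 arrays, Hoxb1 and Hoxd1 were not tested. The median difference of the 7 genes was 0.71 on the log2 scale in each genotype, beside 0.01 for all genes in wild type and -0.03 in mutants. In these bulk samples, fewer cells of a type and less RNA per cell cannot be told apart.

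**Figure D1:**
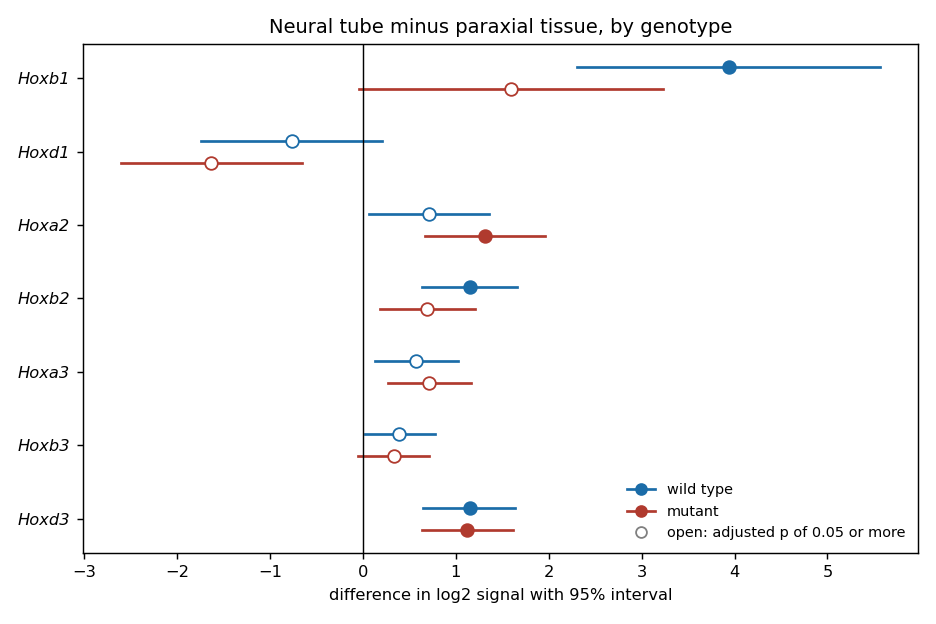
Neural tube minus paraxial tissue (horizontal axis, log2 signal) for each gene (rows) in wild type and in mutants, with lines for the 95% interval of limma's estimate from 2 embryos a genotype. Filled points passed an adjusted p of 0.05: Hoxb1, Hoxb2 and Hoxd3 in wild type and Hoxa2 and Hoxd3 in mutants, while Hoxd1 alone lies left of 0.

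Which members passed depended on single arrays. The 3 calls in wild type became 0 without either mutant neural tube array and without either array of wild-type embryo 2 (neural tube or paraxial tissue). They left Hoxb1 alone without either mutant paraxial array, and Hoxb2 and Hoxd3 without either single array of wild-type embryo 1. The 2 calls in mutants became 0 without mutant neural tube 1, mutant neural tube 2 or mutant paraxial tissue 2, and were Hoxb1 alone without mutant paraxial tissue 1. They became 4 (with Hoxd1 and Hoxa3) without either wild-type neural tube array and 5 (with Hoxb2 too) without either wild-type paraxial array. In a model without the embryo as a replicate block, no member passed in either genotype or on average, where 4, 0 and 598 of all genes did. The 6 calls of the average were Hoxb1 and Hoxd3 without mutant neural tube 1 or mutant paraxial tissue 2, and Hoxd3 alone without mutant neural tube 2. Without a whole embryo, they were Hoxb2 and Hoxd3 (wild type 1), Hoxb1 and Hoxd3 (mutant 1), Hoxb1 (mutant 2) or none (wild type 2).

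**Figure D2:**
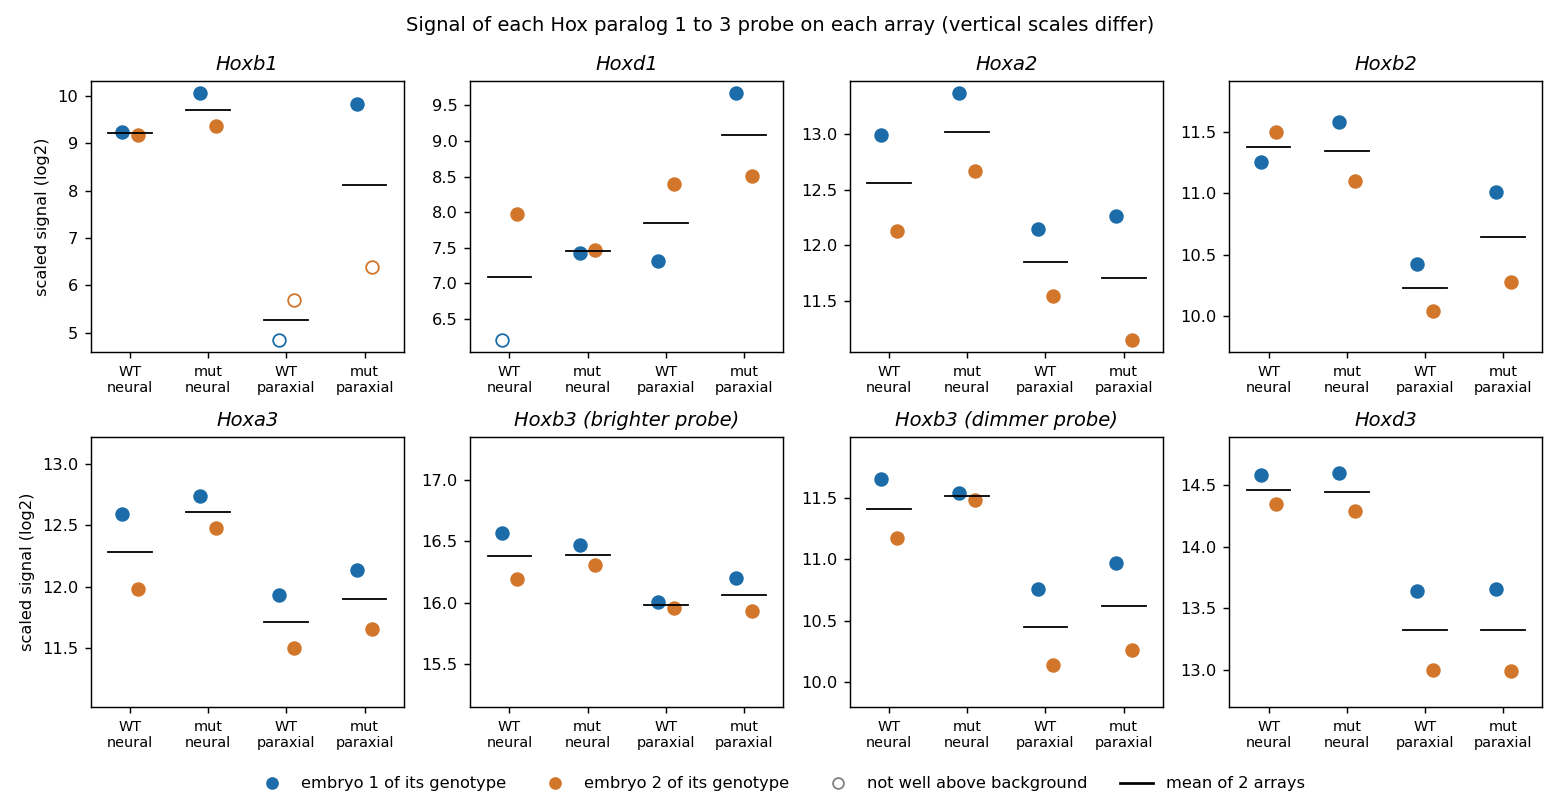
Scaled log2 signal (vertical axes, which differ between panels) of each probe on the 8 arrays, by genotype and tissue (horizontal axis). Points are single arrays coloured by embryo number, open points are not well above background, and bars are means of 2 arrays; Hoxb1 in mutant paraxial tissue shows 1 array near the neural tube values and 1 near background.

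Hoxb1, a group 1 gene whose best known domain is the fourth segment of the hindbrain, had the largest tissue difference of the 7 genes in wild type. Its probe lies at chr11:96228450-96228510 (mm9, plus strand) and was printed on 10 spots of each array. The scaled log2 signal was 9.24 and 9.18 in wild-type neural tube and 10.05 and 9.36 in mutant neural tube. In paraxial tissue it was 4.86 and 5.69 in wild type, both not well above background, and 9.83 and 6.40 in mutants, of which only the first was well above background. Wild-type tissues did not overlap, whereas mutant paraxial tissue of embryo 1 stood above mutant neural tube of embryo 2. The fitted difference in wild type was 3.94 ± 0.69 (SE; limma adjusted p = 0.0403), which amounts to at least 5.76-fold, because the paraxial values are only bounded from above. In mutants it was 1.59 ± 0.69 (adjusted p = 0.265), a fit that takes the below-background value of embryo 2 as measured. By embryo, the difference was 0.22 in mutant 1, where both tissues were read, and at least 2.45 in mutant 2, 2.58 in wild type 1 and 2.47 in wild type 2. With normexp background correction the wild-type difference was 1.29 ± 0.29 (adjusted p = 0.041).

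The spots of the Hoxb1 probe spread over an SD of 0.08 to 0.13 (log2) on the 5 arrays where they were well above background and of 0.44 to 0.64 on the other 3. All 10 were well above background on the 4 neural tube arrays and on mutant paraxial tissue 1, and 0 of 10 were on wild-type paraxial tissue 1 and 2 and on mutant paraxial tissue 2. The median processed signal over spots, before scaling, was 575 and 899 in wild-type neural tube and 979 and 633 in mutant neural tube. In paraxial tissue it was 27.5 and 49.4 in wild type and 701 and 97.4 in mutants. The lowest spot of mutant paraxial tissue 1, at 636, lay above the highest of mutant paraxial tissue 2, at 120. These spots share 1 RNA sample per array and are no replicates of a condition.

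**Figure D3:**
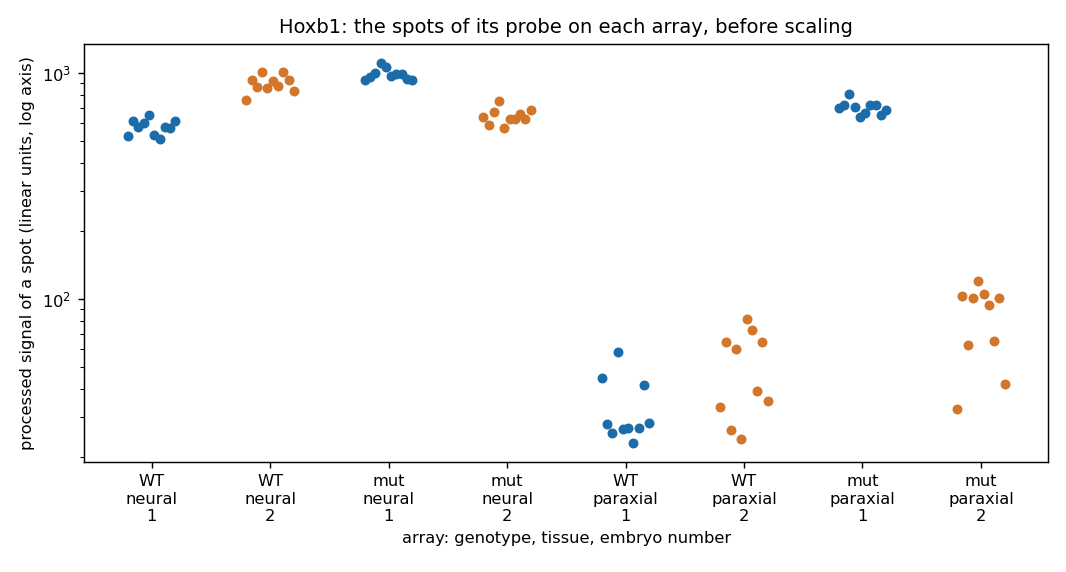
Processed signal (vertical axis, linear units drawn on a log axis) of the 10 spots of the Hoxb1 probe on each array (horizontal axis). Each point is a spot; mutant paraxial tissue 1 has a median of 701, and the other 3 paraxial arrays have medians of 27.5 to 97.4.

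Hoxd1, the other group 1 gene, in the Hoxd cluster, was the 1 member with more signal in paraxial tissue. Its probe lies at chr2:74603000-74603059 (mm9, plus strand). Neural tube gave 6.21 and 7.98 in wild type, the first not well above background, and 7.43 and 7.47 in mutants. Paraxial tissue gave 7.31 and 8.40 in wild type and 9.67 and 8.51 in mutants. The tissues overlapped in wild type and not in mutants, where both paraxial values stood higher. Neural tube minus paraxial tissue was -0.76 ± 0.41 in wild type (adjusted p = 0.389) and -1.64 ± 0.41 in mutants (adjusted p = 0.0702). The average of both, -1.20 ± 0.29, passed (adjusted p = 0.0418), and with normexp correction it was -0.61 ± 0.15 (adjusted p = 0.0248). That call on the average was kept in 1 of the 8 analyses that left out a single array, the one without wild-type neural tube 2.

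Hoxa2, needed for the identity of the second branchial arch and of the hindbrain segments, differed more between tissues in mutants than in wild type, and the test of that difference did not pass (0.60 ± 0.39; adjusted p = 0.963). Its probe lies at chr6:52112595-52112654 (mm9, minus strand). In neural tube the signal was 12.99 and 12.13 in wild type and 13.37 and 12.67 in mutants. In paraxial tissue it was 12.15 and 11.54 in wild type and 12.26 and 11.15 in mutants. The wild-type tissues just overlapped, with paraxial tissue of embryo 1 level with neural tube of embryo 2, although each embryo had more signal in neural tube. Neural tube minus paraxial tissue was 0.71 ± 0.27 in wild type (adjusted p = 0.237), 1.31 ± 0.27 in mutants (adjusted p = 0.0409) and 1.01 ± 0.19 on average (adjusted p = 0.0183).

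Hoxb2, the neighbour of Hoxb1 in its cluster and a direct target of Krox20 (Egr2) in the hindbrain, followed the same direction. Its probe lies at chr11:96215122-96215181 (mm9, plus strand). Neural tube gave 11.25 and 11.50 in wild type and 11.58 and 11.10 in mutants. Paraxial tissue gave 10.42 and 10.04 in wild type and 11.01 and 10.28 in mutants. The tissues did not overlap in either genotype, with the mutant groups separated by the narrower gap. Neural tube minus paraxial tissue was 1.15 ± 0.22 in wild type (adjusted p = 0.0495), 0.69 ± 0.22 in mutants (adjusted p = 0.129) and 0.92 ± 0.15 on average (adjusted p = 0.0116).

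Hoxa3, which patterns the third arch and pouch and the neck vertebrae together with its paralogs, had a smaller difference. Its probe lies at chr6:52119087-52119146 (mm9, minus strand). Neural tube gave 12.59 and 11.98 in wild type and 12.74 and 12.48 in mutants, and paraxial tissue 11.93 and 11.50 in wild type and 12.14 and 11.66 in mutants. Neither genotype's tissues overlapped. The difference was 0.57 ± 0.19 in wild type (adjusted p = 0.176) and 0.71 ± 0.19 in mutants (adjusted p = 0.0795), and the average of 0.64 ± 0.13 passed (adjusted p = 0.0239).

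Hoxb3 was read by 2 probes that differed in the size of the tissue difference. The array's annotation lists transcripts of both Hoxb3 and Hoxd3 for the brighter one, so its signal cannot be assigned to Hoxb3 alone. It gave 16.57 and 16.19 in wild-type neural tube, 16.47 and 16.31 in mutant neural tube, 16.01 and 15.96 in wild-type paraxial tissue and 16.20 and 15.93 in mutant paraxial tissue. Its difference between tissues was 0.39 ± 0.16 in wild type (adjusted p = 0.260), 0.33 ± 0.16 in mutants (adjusted p = 0.320) and 0.36 ± 0.11 on average (adjusted p = 0.0888), and the groups did not overlap in either genotype. The dimmer one, at chr11:96209002-96209061 (mm9) and annotated to Hoxb3 transcripts only, gave 11.65 and 11.17, 11.54 and 11.48, 10.76 and 10.14, and 10.97 and 10.26 in the same order of groups. In a fit of all 42752 kept probes its difference was 0.96 ± 0.23 in wild type (adjusted p = 0.0843), 0.89 ± 0.23 in mutants (adjusted p = 0.0734) and 0.93 ± 0.16 on average (adjusted p = 0.0132). The dimmer probe was taken in place of the brighter one as an alternative chosen after seeing the data, and all 7 members then passed on average.

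Hoxd3, the group 3 gene of the Hoxd cluster with roles in the first neck vertebrae, had nearly the same tissue difference in both genotypes. Its probe lies at chr2:74585787-74585846 (mm9, plus strand). Neural tube gave 14.58 and 14.35 in wild type and 14.60 and 14.29 in mutants, and paraxial tissue 13.64 and 13 in wild type and 13.66 and 12.99 in mutants. The tissues were apart in each genotype, and embryo 1 stood above embryo 2 in all 4 groups. The difference was 1.15 ± 0.21 in wild type (adjusted p = 0.0443), 1.12 ± 0.21 in mutants (adjusted p = 0.0303) and 1.14 ± 0.15 on average (adjusted p = 0.00529). Its tissue effect differed between genotypes by -0.02 (95% interval -0.72 to 0.68).

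Over the 8 arrays, Hoxb1, Hoxa2, Hoxb2, Hoxa3, Hoxb3 and Hoxd3 had pairwise Pearson correlations of 0.70 (Hoxb1 with Hoxa2) to 0.96 (Hoxa2 with Hoxa3), and Hoxd1 had -0.038 with Hoxb1 to -0.61 with Hoxd3. These are descriptions over arrays that share tissues, embryos and slide rows. Of the neural marker lists, 2 were apart between tissues. The mean of 7 neural progenitor markers, relative to its average over arrays, was 0.73 to 0.93 on neural tube arrays and -1.56 to -0.17 on paraxial arrays, and that of 7 ventral markers 1.04 to 1.90 and -1.65 to -0.86. The means of 10 differentiated neuron markers (-0.24 to 0.88 and -1.04 to 0.56) and of 12 dorsal markers (-0.54 to 0.95 and -1.02 to -0.07) overlapped between tissues. Their part in the Hox differences was not tested.

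The second comparison asked whether the mutants differed from wild type within a tissue. No member passed in neural tube, in paraxial tissue or in the difference between the 2 effects, and 0 of 28828 genes (0% in each direction) did in limma. Without adjustment, 1047, 968 and 1490 genes had p under 0.05 in these comparisons (3.63%, 3.36% and 5.17% of all genes). With the slide row as a fixed replicate block these were 2271, 1736 and 603, again with 0 after adjustment. Some alternatives called a few genes, none of them a member. In paraxial tissue 17 passed without mutant paraxial tissue 1, 5 without wild-type paraxial tissue 2 and 5 without embryo mutant 1. In the difference of the effects 4 passed with cyclic loess scaling, 18 without wild-type paraxial tissue 1, 18 without mutant paraxial tissue 1, 33 without wild-type paraxial tissue 2 and 6 without embryo mutant 1. Among the members, 0 of 7 were under 0.05 in neural tube, and Hoxb1 alone was in paraxial tissue and in the difference of the effects. The medians of the 7 differences, 0.33 in neural tube and 0.18 in paraxial tissue, stood beside -0.01 and 0.03 for all genes.

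**Figure D4:**
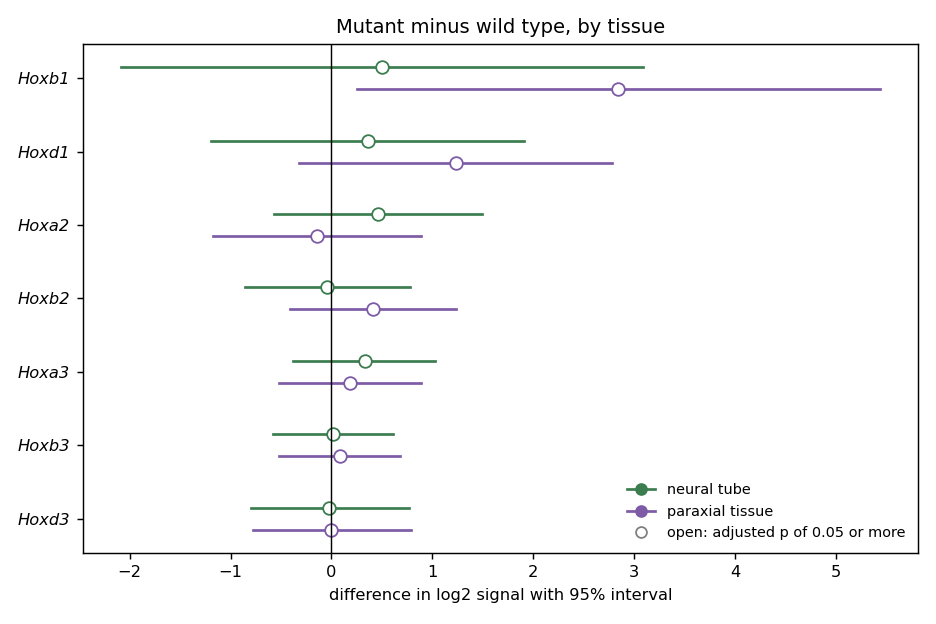
Mutant minus wild type (horizontal axis, log2 signal) for each gene (rows) in neural tube and in paraxial tissue, with lines for the 95% interval of limma's estimate from 2 embryos a genotype. All points are open because no adjusted p was under 0.05. The Hoxb1 interval in paraxial tissue runs from 0.25 to 5.44. Only mutant paraxial tissue 1 read Hoxb1 well above background there, so that interval takes unread values as measured.

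In neural tube the mutant difference of Hoxb1 was 0.50 ± 1.1 and that of Hoxd1 0.36 ± 0.65, with 95% intervals of -2.09 to 3.09 and -1.19 to 1.91. It was 0.46 ± 0.43 for Hoxa2, -0.04 ± 0.35 for Hoxb2 and 0.33 ± 0.30 for Hoxa3. For the brighter Hoxb3 probe it was 0.02 ± 0.25, and for Hoxd3 -0.02 ± 0.33. These neural tube estimates were small beside their intervals, which for Hoxd3 ran from -0.80 to 0.77 and for Hoxa2 from -0.57 to 1.49. Hoxb1 was the 1 member whose mutant and wild-type neural tube values did not overlap (16.5% of all genes stood apart in that direction). The signs for Hoxb2, Hoxb3 and Hoxd3 in neural tube, and for Hoxb3 and Hoxd3 in paraxial tissue, changed with the scaling of the arrays.

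In paraxial tissue the fitted difference of Hoxb1 was 2.84 ± 1.1 (adjusted p = 0.995), and 1.19 with normexp correction. Of the 4 paraxial arrays only mutant paraxial tissue 1 read it well above background, so the fitted size is not a measured one. Mutant paraxial tissue 1 was at least 9.06-fold above wild-type paraxial tissue 1, its neighbour in slide row 1, and at least 8.73-fold above wild-type paraxial tissue 2. Mutant paraxial tissue 2 and both wild-type arrays were all below that mark, so without mutant paraxial tissue 1, or within slide row 2, no fold is given. Hoxd1 stood at 1.23 ± 0.65 (adjusted p = 0.995), with 2.36 within slide row 1, 0.11 within slide row 2 and 0.65 without mutant paraxial tissue 1. The remaining 5 genes were at -0.14 ± 0.43 (Hoxa2), 0.41 ± 0.35 (Hoxb2), 0.18 ± 0.30 (Hoxa3), 0.08 ± 0.25 (Hoxb3) and 0.00 ± 0.33 (Hoxd3), and their mutant and wild-type values overlapped. Hoxb1 and Hoxd1 did not overlap, where 22.6% of all genes stood apart in that direction. For Hoxb1 that order sets mutant paraxial tissue 2 against both wild-type arrays, all not well above background, so it is not a measured one. The effect on Hoxb1 in neural tube minus that in paraxial tissue was -2.34 ± 0.98 (adjusted p = 0.956), from the same partly unread values.

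The 2 mutant embryos were not alike. In embryo 1 the signal of all 7 members in paraxial tissue, and of 5 of 7 in neural tube, lay above both wild-type arrays of the tissue (40.9% and 33.6% of all genes). In embryo 2 this held for 2 of 7 in paraxial tissue and 1 of 7 in neural tube (37.8% and 28.3% of all genes). The 2 in paraxial tissue were Hoxd1 and Hoxb1, of which Hoxb1 was not well above background on that array. The median member stood 0.43 and 0.34 above the wild-type mean in paraxial tissue and neural tube of embryo 1, and -0.06 and 0.11 from it in embryo 2. Some markers of other cell types moved with mutant embryo 1 and others with both mutants. The mean of 7 surface ectoderm and epithelial markers, relative to its average over arrays, was 1.53 there and 0.52 on mutant paraxial tissue 2, against -0.63 and -0.29 in wild-type paraxial tissue, with all 7 well above background on both mutant arrays. The 7 ventral neural tube markers were at -0.86 and -1.60 against -1.65 and -1.46, with 5 of 7 well above background on each, and the 7 neural progenitor markers at -0.61 and -1.56 against -0.17 and -1.08. The 6 myotome markers were at 0.65 and 1.67 against 1.56 and 2.53. The 6 endothelial markers, at 0.76 and 0.74 against 0.05 and 0.21, and 4 erythroid markers, at 0.79 and 0.68 against -0.13 and -0.11, were alike in both mutants. On mutant neural tube 1 the differentiated neuron markers were at -0.24 and the dorsal markers at -0.54, below the other 3 neural tube arrays (0.73 to 0.88 and 0.46 to 0.95). The wild-type embryos were uneven on some lists too. The mean of 8 sclerotome and mesenchyme markers was -2.71 and -0.17 in wild-type neural tube. That of 10 differentiated neuron markers was 0.56 and -0.83 in wild-type paraxial tissue. Other lists, such as the erythroid markers above, were close in both wild types. The part of these cell types in the Hoxb1 and Hoxd1 values was not tested.

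**Figure D5:**
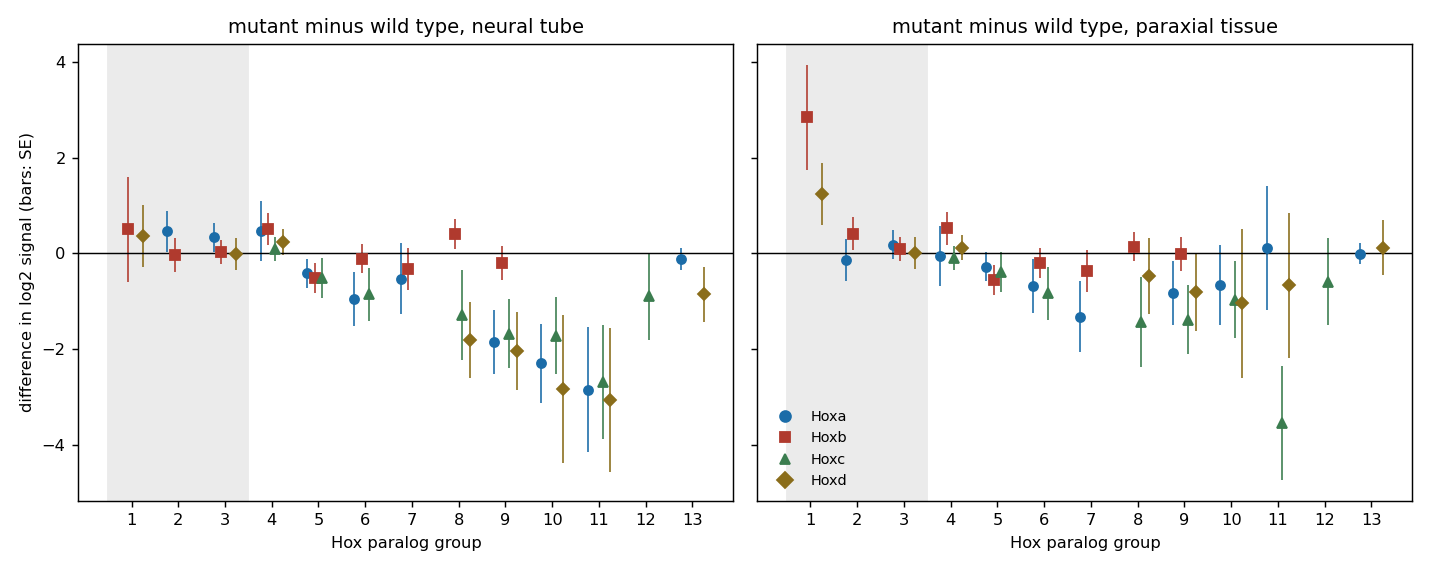
Mutant minus wild type (vertical axis, log2 signal; bars are SE) for each Hox gene tested, by paralog group (horizontal axis) and cluster, in neural tube (left) and paraxial tissue (right). The shaded groups 1 to 3 lie from -0.14 to 2.84, and in neural tube groups 9 and 10 lie from -2.84 to -0.20. The -2.84 is Hoxd10, which was not well above background on mutant neural tube 1. No difference passed the test.

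The remaining Hox genes give the setting of these values. In neural tube the median mutant difference was 0.33 for groups 1 to 3, 0.09 for groups 4 and 5, -0.69 for groups 6 to 8, -1.86 for groups 9 and 10 and -1.80 for groups 11 to 13. In paraxial tissue the medians were 0.18, -0.10, -0.58, -0.83 and -0.30 in the same order. No gene of any of these groups passed the test. Of the mutant embryos, embryo 1 had the lower medians in groups 6 to 13, with -3.04 from the wild-type mean for groups 9 and 10 in neural tube. Embryo 2 had -0.55 there. Wild-type embryo 1 was also below wild-type embryo 2. Relative to their averages over arrays, groups 6 to 8, 9 and 10, and 11 to 13 had means of 0.08, 0.46 and 0.28 in its neural tube. Wild-type neural tube 2 had 0.74, 0.93 and 1.42. Both embryos numbered 1 lay in slide row 1, so embryo and row cannot be told apart. On mutant neural tube 1, only 2 of 6 tested genes of groups 11 to 13 were well above background, and 6 of 7 of groups 9 and 10. The neural tube size for groups 11 to 13 is therefore not a measured one. Of 9 listed genes of groups 11 to 13, 6 were tested. Between tissues, 4 of 7 genes of groups 4 and 5 were also higher in neural tube on average (5.97% of all genes), namely Hoxb4, Hoxc4, Hoxd4 and Hoxa5, with Hoxd4 at 0.63 ± 0.12 (adjusted p = 0.0178), and 0 of 7 passed in either genotype alone.

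Of 9 tested genes of the Pbx, Meis and Prep families, whose proteins bind DNA with Hox proteins, 0 passed in wild type and 2 were higher in the neural tube of mutants than in their paraxial tissue (2.69% of all genes). Pbx4 was at 13.52 and 13.55 in wild-type neural tube, 12.75 and 13.51 in mutant neural tube, 12.87 and 12.45 in wild-type paraxial tissue and 11.91 and 12.10 in mutant paraxial tissue. Its difference in mutants was 1.13 ± 0.21 (adjusted p = 0.0321), and that of Meis3 was 0.82 ± 0.17 (adjusted p = 0.0425). The list's median difference in mutants was 0.06. On average over genotypes Pbx3 passed as well, at 0.70 ± 0.14 (adjusted p = 0.0197).

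Among 7 tested upstream regulators of anterior Hox genes, Gbx2, a homeobox gene of the hindbrain and neural plate, was the 1 that passed between tissues. Neural tube minus paraxial tissue was 1.80 ± 0.29 in mutants (adjusted p = 0.0210), 1.43 ± 0.29 in wild type (adjusted p = 0.0582) and 1.62 ± 0.21 on average (adjusted p = 0.00506). In that direction 2.69% of all genes passed in mutants and 5.97% on average. Cdx1, a caudal-type factor that binds Hox regulatory regions, had 4.39 and 7.02 in wild-type paraxial tissue, the first not well above background, and 11.01 and 7.38 in mutant paraxial tissue. As with Hoxb1, mutant embryo 1 had the high value, and the difference of 3.49 ± 1.48 did not pass (adjusted p = 0.995). In neural tube Cdx1 was at 4.62 and 7.75 in wild type and 9.97 and 5.81 in mutants, so mutant embryo 1 again stood highest. The 4.62 and the 5.81 were not well above background. Cdx1 passed the filter on dim probes only through mutant paraxial tissue, where it was high. Its fitted difference there takes a below-background wild-type value as measured.

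Of 15 tested genes of the retinoic acid pathway, 0 passed in wild type, and in mutants Rarg, which encodes a nuclear receptor for retinoic acid, was lower in neural tube than in paraxial tissue, at -2.24 ± 0.45 (adjusted p = 0.0364; 3.18% of all genes). On average 2 were higher and 2 lower in neural tube (5.97% and 6.03% of all genes): Crabp2, a binding protein, and the receptor Rara were at 0.83 ± 0.18 and 0.48 ± 0.11 (adjusted p = 0.0301 and 0.0335). Rarg and Aldh1a2, the main enzyme of retinoic acid synthesis in the embryo, were at -1.90 ± 0.32 and -0.98 ± 0.20 (adjusted p = 0.0115 and 0.0216). Cyp26b1, an enzyme that degrades retinoic acid, was at 9.55 and 9.48 in wild-type neural tube and 12.95 and 11.73 in mutant neural tube, and at 10.46 and 10.86 in wild-type and 12.44 and 12.02 in mutant paraxial tissue. Both mutant embryos stood above both wild-type embryos in each tissue, as did 16.5% of all genes in neural tube and 22.6% in paraxial tissue. The differences of 2.83 ± 0.43 and 1.57 ± 0.43 did not pass (adjusted p = 0.577 and 0.995). The median mutant difference of the list was 0.28 in neural tube and 0.44 in paraxial tissue.

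Of 16 tested Polycomb and trithorax genes, which keep Hox clusters off or on, 1 passed between tissues on average, a share near that of all genes (5.97% higher and 6.03% lower). Ring1, a subunit of the first Polycomb complex, was higher in neural tube by 1.1 ± 0.18 (adjusted p = 0.0116). Its values in each genotype alone were 1.17 ± 0.26 and 1.02 ± 0.26, which did not pass (adjusted p = 0.0717 and 0.0727). Of 5 genes reported to act downstream of these Hox genes, Six2, which Hoxa2 keeps low in the second branchial arch, was the 1 that passed. It was not well above background in mutant neural tube (4.61 and 4.58), and mutant paraxial tissue had 10.03 and 7.48, at least 3.74-fold more. The limma test was of the fitted difference of -4.16, which takes the below-background values as measured (adjusted p = 0.0204). Six2 passed the filter on dim probes only through mutant paraxial tissue, where it was high, which limits its call. In mutants 3.18% of all genes passed as lower in neural tube. In wild type Six2 was at 4.53 and 6.37 in neural tube and 5.88 and 7.98 in paraxial tissue. The first of each was not well above background. The fitted difference of -1.48 ± 0.67 did not pass (adjusted p = 0.308). None of the 5 passed between mutants and wild type.

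The genes whose signal most resembled the mean of the 7 members over the 8 arrays were Crip2 (Pearson r = 0.981), Cdc42se2 (0.976) and Zmat3 (0.963), beside a probe for a long intergenic RNA (0.963) and a probe without a gene name (0.96). Hoxb1, itself part of that mean and the member with the widest range, correlated with it at 0.982. With Hoxb1 left out of the mean, the correlation was 0.948 for Crip2, 0.962 for Cdc42se2, 0.938 for Zmat3, 0.968 for the intergenic RNA and 0.964 for the unnamed probe. With Hoxb1 alone the same 5 had 0.981, 0.957, 0.955, 0.923 and 0.922. The points share embryos and tissues, and these values are descriptions.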

How the data were processed

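Per the file headers, the authors extracted a linear intensity for each spot in the red (Cy5) channel with Agilent Feature Extraction (version 11.0.1.1, also in the submitters' processing notes), with spatial and multiplicative detrending on, and the design was annotated on mm9. RNA was isolated with the PicoPure kit and cDNA labelled with the Kreatech ULS kit, per the labels' protocols. The 3671 control spots and outlier spots were left out, the spots of a probe averaged, log2 taken and each array's 75th percentile subtracted, with a common constant added back. No spot was saturated. The filter on dim probes asked for 1 group or more in which both arrays read well above background (42752 probes), and the brightest stood for each of 28828 genes. Names came from RefSeq through the reference tables (26056 by accession, 4130 by symbol or synonym, 25495 with the file's name), and no exon or UTR annotation of mm9 was used. A model of 4 group means, in which the embryo was a random block, was fitted to the 8 arrays (correlation within an embryo 0.603; degrees of freedom 4 residual and 2.94 prior) with limma 3.58.1 in R 4.3.3, followed by Benjamini-Hochberg adjustment over all genes at 0.05. Errors after ± are standard errors of this model unless said otherwise, on the log2 scale, where each unit is a 2-fold difference.

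The labels name the embryo of each array, and the deviations of both tissues of an embryo from their group means correlated across genes at 0.562 in wild type and 0.607 in mutants, so arrays of an embryo were treated as paired. Wild-type and mutant arrays of the same number, which share a slide row, correlated at 0.289 and 0.291, and the main model has no term for this. All 8 arrays lay on 1 slide and in 1 scan, those of embryos numbered 1 in slide row 1 and those numbered 2 in row 2. Whether these rows were handled apart is not given in the sources used here. P-values rest on 2 embryos a genotype, and the number of arrays limits the precision. For a gene below that mark throughout a group, "at least" a fold sets the brighter group's mean against a floor, which on each array is the dimmest signal that reads well above background or the gene's own signal, if that is brighter. Simulated arrays of 28828 genes had 50 changed genes per size. For the tissue difference in wild type, 28%, 68%, 84% and 98% of log2 changes of 1, 2, 3 and 4 were recovered, with 11 false calls. For the mutant difference in neural tube, 0%, 40%, 64% and 86% were recovered, with 3 false calls. The simulated errors were independent between genes, with the embryo correlation and no slide row effect. These rates therefore leave out the correlation of arrays that share a slide row.

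The members and gene lists were chosen with earlier results of these data known. The genes named are all 7 members, up to 3 genes of another list with the smallest unadjusted p in the comparison described, and the 5 genes most like the members' mean. Alternatives were the scaling (quantile, median, cyclic loess, or the percentile over probes well above background on all arrays), normexp with an offset of 50, the authors' value table of the same intensity values (within 0.497% of the scanner files), the filter on dim probes, the probe of a gene, outlier spots kept, the embryo or slide row as block, trended and robust moderation, the arrays in the fit, and leaving out each array or embryo.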

Additional observations from a re-analysis of the deposited data

How the results depend on the processing

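In wild type the tissue count of 3 became 0 with cyclic loess scaling, with no filter on dim probes, with no replicate block, and with the embryo or the slide row as a fixed replicate block, and 1 with only the compared arrays in the fit. In mutants the count of 2 became 1 with quantile scaling, 4 with normexp correction, and 0 with no filter, with no replicate block, with either fixed replicate block and with only the compared arrays. On average the count of 6 became 0 with no replicate block and 2 with slide row as the replicate block, against 5 with the embryo as a fixed block. Leaving out an array or embryo gave counts of 0 to 2, 0 to 5 and 0 to 7 for these comparisons. The counts of 0 members between mutants and wild type were 0 in every alternative run. Over all genes, unadjusted p under 0.05 was reached by 518 to 3335 genes in neural tube, 596 to 1736 in paraxial tissue and 370 to 4973 in the difference of the effects over all alternatives. In neural tube the count of 1047 became 3335 without wild-type neural tube 1, 693 without wild-type neural tube 2, 636 without mutant neural tube 1 and 2045 without mutant neural tube 2, and in paraxial tissue the count of 968 became 641 without wild-type paraxial tissue 1. For the difference the count of 1490 became 4973 and 2275 without wild-type neural tube 1 and 2, 3664 without wild-type paraxial tissue 1 and 975 without mutant paraxial tissue 1. The causes were not tested. Fits without an embryo, or of only the arrays compared between tissues, had too few degrees of freedom to estimate the correlation. They used that of all 8 arrays. Fits of only the arrays compared between genotypes had no embryo block and used no correlation.

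Of 1220 values of single members under alternatives, 1028 counted as unchanged, 125 kept the direction and no longer passed, 20 passed anew and 47 changed sign. In a refit, unchanged meant the same direction and the same side of the threshold. Values within a slide row had no test. They counted as unchanged within the spread of the arrays, whatever their sign where the main value had not passed. The 47 therefore leave out sign changes of such values within a slide row. All 47 were differences between genotypes that did not pass in any fit. With quantile scaling the mutant difference was -0.19 for Hoxb3 in each tissue and -0.11 for Hoxd3 in paraxial tissue, and with cyclic loess it was -0.23 and -0.18 for Hoxb3 (neural tube, paraxial tissue) and -0.13 for Hoxd3 in paraxial tissue. With median scaling, which put the median of all genes at 0.08 in neural tube and 0.13 in paraxial tissue, Hoxb2 was at 0.05 and Hoxd3 at 0.07 in neural tube. With the percentile over probes well above background on all arrays, both Hoxb3 in neural tube and Hoxd3 in paraxial tissue were at -0.06, and with normexp Hoxb3 was at -0.01 in neural tube. Leaving out arrays or embryos also turned signs. In neural tube the range was -0.03 to 1.03 for Hoxb1, -0.52 to 1.24 for Hoxd1, -0.30 to 0.23 for Hoxb2, -0.18 to 0.21 for Hoxb3 and -0.17 to 0.14 for Hoxd3. In paraxial tissue it was -0.70 to 0.42 for Hoxa2, -0.06 to 0.43 for Hoxa3, -0.06 to 0.21 for Hoxb3 and -0.33 to 0.34 for Hoxd3. For the difference of the effects it was -0.03 to 0.31 for Hoxa3, -0.24 to 0.11 for Hoxb3 and -0.28 to 0.23 for Hoxd3. Signals below background on 3 of 4 paraxial arrays limit the size given for Hoxb1.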
